A study of Mus musculus with 16 samples.

Results

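The genes described here are the mouse genes for Toll-like receptors and their closest partners: the receptors Tlr1, Tlr2, Tlr3, Tlr4, Tlr5, Tlr7 and Tlr8, the co-receptors Cd14 and Ly96, and the adaptor Myd88. They were chosen by name, as the genes with these symbols in the deposited table of counts, and all 10 were found among its 41079 genes. All 10 also passed the filter on low counts, which kept 16742 genes for testing. Toll-like receptors recognise molecules of bacteria, viruses and parasites, some at the cell surface and others inside endosomes, and pass the signal through adaptor proteins to NFκB and interferon regulatory factors. In the liver they are best known from Kupffer cells and other macrophages, with some also on endothelial cells and hepatocytes, all of which meet microbial products that reach the organ through portal blood.

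Liver RNA was measured in 16 C57BL/6J mice aged 20 to 22 months, as 4 groups of 4: male CRE-, male LKO, female CRE- and female LKO. In LKO mice, Cre recombinase driven by the Albumin promoter deletes the floxed exons of Gcgr, the glucagon receptor gene, in the liver. CRE- mice are the controls, which carry the floxed alleles without Cre. The Albumin promoter is active in hepatocytes, so the deletion is not directed at Kupffer cells, other leukocytes or endothelium. The comparison of LKO with CRE- mice within each sex asks how RNA levels differ when this receptor gene is deleted in the liver of mice at an advanced age.

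The reads counted on genes were 43560336, 49713515, 39577958 and 45016004 in male CRE- replicates 1 to 4 and 33351783, 47541412, 40043146 and 36908313 in male LKO replicates 1 to 4. They were 47314223, 56488920, 46228166 and 46367609 in female CRE- replicates 1 to 4 and 35086109, 39611392, 48265539 and 33268424 in female LKO replicates 1 to 4. Levels are given below as CPM, counts per 1000000 reads after TMM scaling of the libraries, in the order of replicates 1 to 4 of a group. RNA of the targeted gene, Gcgr, was at 162, 208, 201 and 180.0 CPM in female CRE- mice and at 48.8, 132, 119 and 93.6 CPM in female LKO mice. All female LKO values lay below all female CRE- values, and the lowest was that of female LKO replicate 1. Male Gcgr levels were 190.4, 193, 127 and 189.6 CPM in CRE- mice and 117, 136, 129.9 and 160.3 CPM in LKO mice, with overlap between the groups through male CRE- replicate 3. The floxed exons are a part of the gene, and these counts cover all its exons, so RNA of the exons outside the deletion is included in them. Xist was at or above 137 CPM in all female libraries and at or below 0.243 CPM in all male ones, and Ddx3y had 0 counts in all female libraries, so the labelled sexes matched. Hepatocyte markers, of which Alb had the most counts, summed to at least 48794 CPM in every library.

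Among the libraries, female LKO replicates 1 and 4 stood apart in the levels described here. The 10 genes summed to 353, 72.9, 98.5 and 185 CPM in female LKO mice, against 73.6, 59.0, 60.0 and 77.1 CPM in female CRE- mice. In males the sums were 87.8, 62.1, 74.0 and 88.3 CPM for CRE- and 85.3, 60.7, 61.4 and 60.1 CPM for LKO mice. The sum in female LKO replicate 1 was the highest of all 16 libraries and that of replicate 4 the next, while replicate 2 lay within the range of the other groups. Female LKO replicate 1 had the highest level of 7 of the 10 genes, and replicate 4 that of Cd14 alone. Cd14 made up 93.4 of the 185 CPM of replicate 4. When limma-voom estimated a quality weight per library, replicate 1 received the lowest (0.216) and replicate 4 received 0.545. Male CRE- replicate 3 (0.296) and female CRE- replicate 4 (0.540) also had weights below that of female LKO replicate 4. Mitochondrial transcripts were 4.10, 4.39, 3.96 and 2.83% of the reads of female LKO replicates 1 to 4 and 4.401, 5.40, 4.75 and 4.57% of those of female CRE- replicates 1 to 4. The part of these libraries' quality in the results was not tested, and the main results in females are given with and without them.

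In females, 1 of the 10 genes, Cd14, rose in LKO mice at an adjusted p under 0.05, against 4.24% of the 16742 genes tested (710 genes in either direction), by edgeR's quasi-likelihood test with adjustment over all genes tested. The call of Cd14 did not hold without female LKO replicate 1 or without replicate 4, as described with its values. 6 of the 10 (Tlr1, Tlr2, Tlr4, Tlr7, Tlr8 and Cd14) were higher at an unadjusted p under 0.05, which 12.3% of all genes tested were. The median log2 fold change was 1.80 over the 10 genes and 0.04 over all genes tested. 1 of the 10, again Cd14, had all 4 LKO values above all 4 CRE- values, as did 5.20% of all genes tested. Without female LKO replicate 1, the median over the 10 genes was 0.60 and 0 passed the adjusted threshold, with 4 higher at an unadjusted p under 0.05, where 1.39% of all genes passed and 8.67% were higher. Without female LKO replicate 4, the median was 1.83, 1 passed (Tlr4) and 6 were higher at an unadjusted p under 0.05, where 2.37% of all genes passed and 12% were higher. The log2 fold changes were then 2.01 for Tlr1, 1.90 for Tlr2, 2.40 for Tlr4, 1.86 for Tlr7, 2.67 for Tlr8 and 1.80 for Cd14. Without both female LKO replicates 1 and 4, a choice made after the data were seen, the median was 0.25, 0 passed and 1 was higher at an unadjusted p under 0.05, where 0.443% of all genes passed and 6.10% were higher. The number of these genes that passed in females also depended on the tool: DESeq2's Wald test on the same 16 libraries called 6, the same 6 named above, and limma-voom with quality weights called Cd14, Tlr1 and Tlr2. Of the genes with any count, DESeq2 called 1795 of 26379 (6.80%), and of the genes tested limma-voom called 1976 of 16742 (11.8%). The DESeq2 shares given here include genes with few counts, so they are not like the other shares. In bulk tissue, more cells of a type and more RNA per cell cannot be told apart, nor can fewer cells and less RNA per cell.

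In males, 0 of the 10 genes passed by edgeR's test, where 0.454% of all genes tested did (76 genes), and DESeq2 and limma-voom also called 0. Of the genes with any count, DESeq2 called 336 of 26379 (1.27%) in males, and of the genes tested limma-voom called 148 of 16742 (0.884%). Tlr5 alone was at an unadjusted p under 0.05, on the lower side, where 4.74% of all genes tested were. The median log2 fold change was -0.06 over the 10 genes, against -0.01 over all genes tested. None of the 10 had separate ranges in males in either direction, against 3.57% of all genes tested with every LKO value higher and 2.92% with every LKO value lower. The CRE- groups are different mice in the 2 sexes, so the male and female comparisons share no control.

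**Figure D1:**
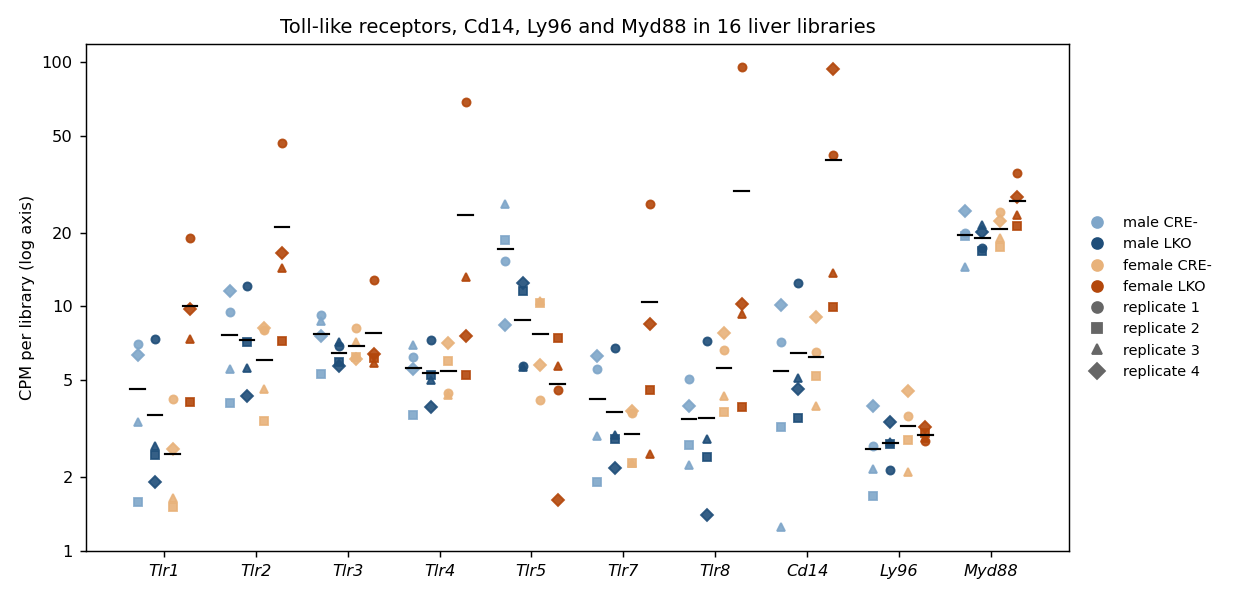
Level of each of the 10 genes in every library, as CPM on a log axis, with 1 point per mouse, colour for group, shape for replicate number and a bar at each group mean. Female LKO replicate 1 (circles) lies far above the other mice for Tlr4, Tlr7 and Tlr8, and female LKO replicate 4 (diamond) is the highest for Cd14.

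The lipopeptide receptors at the cell surface were higher in most female LKO livers. Tlr1, which pairs with Tlr2 to recognise triacylated lipopeptides, was at 4.19, 1.52, 1.65 and 2.62 CPM in female CRE- mice and at 19.1, 4.06, 7.33 and 9.81 CPM in female LKO mice. All 4 LKO values exceeded the CRE- mean, and the groups overlapped only through LKO replicate 2 and CRE- replicate 1. The means were 2.50 ± 1.23 CPM (SD, n = 4) and 10.1 ± 6.46 CPM (SD, n = 4), and the log2 fold change was 2.01 (SE 0.56 and adjusted p = 0.0528 by edgeR's quasi-likelihood test), just short of the threshold. Without female LKO replicate 1, it was 1.52 (adjusted p = 0.180), and without replicates 1 and 4 it was 1.21 (adjusted p = 0.465). Over all 25 alternatives the adjusted p of Tlr1 ranged from 0.00485 to 0.465. With all libraries kept it passed in 4 of 8 other settings. These were DESeq2 (0.00489), limma-voom (0.0156), no filter on low counts (0.04999) and the replicate number as a block (0.00485). Of the fits without 1 library it passed in 3: without female LKO replicate 2 (adjusted p = 0.0260), without male CRE- replicate 2 (0.0426) and without male LKO replicate 1 (0.0389). Male Tlr1 levels were 7.02, 1.58, 3.38 and 6.36 CPM in CRE- and 7.33, 2.46, 2.68 and 1.92 CPM in LKO mice. The male groups overlapped, and the highest value of each was in its replicate 1. The male log2 fold change was -0.35 (SE 0.54 and adjusted p = 0.867 by edgeR).

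Tlr2, the partner shared by the lipopeptide receptors, was at 7.98, 3.39, 4.597 and 8.18 CPM in female CRE- mice and at 46.6, 7.21, 14.3 and 16.5 CPM in female LKO mice. LKO replicates 1, 3 and 4 lay above every CRE- mouse, and replicate 2 lay among them. Group means were 6.04 ± 2.41 CPM (SD, n = 4) and 21.1 ± 17.4 CPM (SD, n = 4), and the log2 fold change was 1.81 (SE 0.51 and adjusted p = 0.0548 by edgeR's quasi-likelihood test). It fell short of the threshold, was 1.09 without replicate 1 (adjusted p = 0.226) and 0.85 without replicates 1 and 4 (adjusted p = 0.532). Of the fits without 1 library it passed in that without female LKO replicate 2 (adjusted p = 0.0208), and of 8 other settings with all libraries kept in 4. These were DESeq2 (0.00625), limma-voom (0.0193), no filter on low counts (0.0493) and the replicate number as a block (0.0178). Over all alternatives the adjusted p ranged from 0.00625 to 0.532. In males, Tlr2 was at 9.49, 4.01, 5.56 and 11.6 CPM in CRE- and at 12.1, 7.16, 5.61 and 4.32 CPM in LKO mice. Only LKO replicate 1 exceeded the highest male CRE- value, and the log2 fold change was -0.07 (SE 0.50 and adjusted p = 0.979 by edgeR).

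Tlr4, the receptor that signals the presence of bacterial lipopolysaccharide, had 4.41, 6.00, 4.36 and 7.06 CPM in female CRE- mice and 68.7, 5.24, 13.2 and 7.58 CPM in female LKO mice. The value of LKO replicate 1 was 7.91 times the mean of the other 3 LKO mice, replicate 2 lay within the CRE- range, and replicates 3 and 4 lay above it. The means were 5.46 ± 1.31 CPM (SD, n = 4) and 23.7 ± 30.2 CPM (SD, n = 4), and the log2 fold change was 2.12 (SE 0.60 and adjusted p = 0.0540 by edgeR's quasi-likelihood test). It was 0.70 without replicate 1 (adjusted p = 0.308) and 0.79 without replicates 1 and 4 (adjusted p = 0.428). The threshold was passed without LKO replicate 2 (adjusted p = 0.0179), without LKO replicate 4 (0.0429), with DESeq2 (0.00415) and with no filter on low counts (0.0459), and the adjusted p ranged from 0.00415 to 0.428 over all alternatives. Male levels of Tlr4 were 6.21, 3.61, 6.97 and 5.57 CPM in CRE- and 7.28, 5.25, 5.02 and 3.89 CPM in LKO mice. They overlapped, with a log2 fold change of -0.06 (SE 0.58 and adjusted p = 0.985 by edgeR).

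Tlr5, the receptor for bacterial flagellin, had another order of groups. In males it was at 15.4, 18.7, 26.3 and 8.43 CPM in CRE- mice and at 5.71, 11.6, 5.64 and 12.4 CPM in LKO mice. LKO replicates 1 and 3 lay below every CRE- mouse, and replicates 2 and 4 lay between CRE- replicate 4 and the other CRE- mice. Male means were 17.2 ± 7.43 CPM (SD, n = 4) and 8.83 ± 3.66 CPM (SD, n = 4), and the log2 fold change was -0.96 (SE 0.44 and adjusted p = 0.507 by edgeR's quasi-likelihood test), which did not pass. Female values were 4.13, 10.4, 10.6 and 5.77 CPM in CRE- and 4.56, 7.45, 5.69 and 1.62 CPM in LKO mice. LKO replicate 4 was the lowest of all 16 libraries, and the others lay within the female CRE- range. The female log2 fold change was -0.67 (SE 0.45 and adjusted p = 0.419 by edgeR), and -0.38 without replicate 4. Between the controls, Tlr5 was lower in female than in male CRE- mice by the means, with a log2 fold change of -1.16 (SE 0.45 and adjusted p = 0.290 by edgeR), which did not pass.

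Of the endosomal receptors, Tlr7 and Tlr8 were highest in female LKO replicate 1 by a wide margin, and Tlr3 less so. Tlr3, which recognises double-stranded RNA and signals without Myd88, was at 8.16, 6.19, 7.13 and 6.09 CPM in female CRE- and 12.8, 6.18, 5.89 and 6.36 CPM in female LKO mice. LKO replicate 1 lay above all CRE- values and replicate 3 below all, and the other 2 lay within the CRE- range. The log2 fold change was 0.18 (SE 0.25 and adjusted p = 0.740 by edgeR's quasi-likelihood test) and turned to -0.15 without replicate 1. In males Tlr3 was at 9.21, 5.30, 8.68 and 7.57 CPM in CRE- and 6.89, 5.91, 7.16 and 5.73 CPM in LKO mice. Every male LKO value was inside the CRE- range, and all 4 lay below the CRE- mean. The male log2 fold change was -0.26 (SE 0.25 and adjusted p = 0.780 by edgeR).

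Tlr7, a receptor for single-stranded RNA, was at 3.68, 2.30, 2.30 and 3.74 CPM in female CRE- mice and at 26.2, 4.56, 2.49 and 8.50 CPM in female LKO mice. LKO replicates 1, 2 and 4 lay above every CRE- mouse and replicate 3 lay among them, with replicate 1 at 5.05 times the mean of the other 3. The means were 3.005 ± 0.817 CPM (SD, n = 4) and 10.4 ± 10.8 CPM (SD, n = 4), and the log2 fold change was 1.79 (SE 0.60 and adjusted p = 0.0907 by edgeR's quasi-likelihood test). It was 0.80 without replicate 1 (adjusted p = 0.459) and 0.24 without replicates 1 and 4 (adjusted p = 0.917). Without LKO replicate 3 it passed (adjusted p = 0.0491), as it did with DESeq2 (0.0214), and the adjusted p ranged from 0.0214 to 0.917 over all alternatives. Male Tlr7 was at 5.54, 1.92, 2.96 and 6.25 CPM in CRE- and 6.74, 2.87, 2.98 and 2.19 CPM in LKO mice. LKO replicate 1 was the highest male, and the other 3 LKO mice lay within the CRE- range. The male log2 fold change was -0.17 (SE 0.58 and adjusted p = 0.946 by edgeR).

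Tlr8, which lies beside Tlr7 on the X chromosome and is its closest relative among the receptors here, was at 6.65, 3.70, 4.31 and 7.78 CPM in female CRE- mice and at 95.4, 3.89, 9.29 and 10.2 CPM in female LKO mice. LKO replicate 1 stood at 12.2 times the mean of the other 3, the widest such gap among the 10 genes, and replicate 2 lay within the CRE- range. The means were 5.61 ± 1.93 CPM (SD, n = 4) and 29.7 ± 43.9 CPM (SD, n = 4), and the log2 fold change was 2.40 (SE 0.77 and adjusted p = 0.0829 by edgeR's quasi-likelihood test). It was 0.49 without replicate 1 (adjusted p = 0.694) and 0.26 without replicates 1 and 4 (adjusted p = 0.920). Without LKO replicate 2 it passed (adjusted p = 0.0289), as it did with DESeq2 (0.0340), and the adjusted p ranged from 0.0289 to 0.920 over all alternatives. In males Tlr8 was at 5.03, 2.72, 2.24 and 3.91 CPM in CRE- and 7.25, 2.42, 2.88 and 1.40 CPM in LKO mice. Male LKO replicate 1 lay above every CRE- mouse and replicate 4 below every CRE- mouse. The male log2 fold change was 0.00 (SE 0.75 and adjusted p = 0.999 by edgeR). Its sign depended on the setting, with values from -0.68 to 0.25 over all alternatives, and turned with DESeq2 and with RLE scaling.

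Cd14, which binds lipopolysaccharide and hands it to the Tlr4 complex, was the only one of the 10 genes that rose in female LKO mice by edgeR's test. It was at 6.52, 5.22, 3.93 and 9.09 CPM in female CRE- mice and at 41.6, 9.97, 13.8 and 93.4 CPM in female LKO mice. All 4 LKO values lay above all CRE- values, narrowly for replicate 2, and replicates 4 and 1 were far above the others. The means were 6.19 ± 2.20 CPM (SD, n = 4) and 39.7 ± 38.5 CPM (SD, n = 4), and the log2 fold change was 2.68 (SE 0.69 and adjusted p = 0.0419 by edgeR's quasi-likelihood test). Leaving out LKO replicate 4 gave 1.80 (adjusted p = 0.113), leaving out replicate 1 gave 2.67 (adjusted p = 0.0851), and leaving out both gave 0.96 (adjusted p = 0.606). With each of the 16 libraries left out in turn, the call was lost in 10 fits. Among the female CRE- mice these were replicates 1, 2, 3 and 4, with adjusted p of 0.0778, 0.134, 0.122 and 0.0796 by edgeR. Among the males they were CRE- replicate 1 and LKO replicates 2, 3 and 4, with adjusted p of 0.0560, 0.0538, 0.0542 and 0.0563. The log2 fold change stayed between 2.51 and 2.94 in these 8 fits, and only the fit without LKO replicate 4 brought it below that range. Fitting the female groups alone also lost it (adjusted p = 0.0792 by edgeR), and over all 25 alternatives the adjusted p ranged from 0.00586 to 0.606 and the log2 fold change from 0.96 to 3.002. In males, Cd14 was at 7.14, 3.21, 1.25 and 10.2 CPM in CRE- mice and at 12.5, 3.50, 5.12 and 4.59 CPM in LKO mice. LKO replicate 1 was the highest male, CRE- replicate 3 the lowest, and the log2 fold change was 0.24 (SE 0.66 and adjusted p = 0.935 by edgeR).

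Ly96 encodes MD-2, the protein that holds lipopolysaccharide on Tlr4. It was at 3.57, 2.84, 2.11 and 4.49 CPM in female CRE- mice and at 2.82, 3.04, 2.89 and 3.21 CPM in female LKO mice. All female LKO values, those of replicates 1 and 4 included, lay within the CRE- range. The log2 fold change was -0.12 (SE 0.29 and adjusted p = 0.862 by edgeR's quasi-likelihood test). In males Ly96 was at 2.698, 1.67, 2.16 and 3.91 CPM in CRE- and 2.14, 2.75, 2.78 and 3.38 CPM in LKO mice. These ranges overlapped as well, and the log2 fold change was 0.08 (SE 0.29 and adjusted p = 0.951 by edgeR). Ly96 and its partners Tlr4 and Cd14 therefore did not share a pattern over the female LKO mice: replicate 1 was the highest of the 4 for Tlr4, replicate 4 was the highest for Cd14, and for Ly96 the 4 values lay between 2.82 and 3.21 CPM.

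Myd88 encodes the adaptor that most Toll-like receptors and the interleukin-1 receptor family share. It was at 24.3, 17.5, 19.1 and 22.3 CPM in female CRE- mice and at 35.0, 21.3, 23.7 and 28.1 CPM in female LKO mice. LKO replicates 1 and 4 lay above every CRE- mouse, and replicates 2 and 3 lay within the CRE- range. The means were 20.8 ± 3.06 CPM (SD, n = 4) and 27.01 ± 6.03 CPM (SD, n = 4), and the log2 fold change was 0.38 (SE 0.19 and adjusted p = 0.268 by edgeR's quasi-likelihood test), which did not pass. It was 0.25 without replicate 1 and 0.13 without replicates 1 and 4. Male Myd88 levels were 20.0, 19.4, 14.5 and 24.6 CPM in CRE- and 17.4, 16.8, 21.6 and 20.3 CPM in LKO mice. All male LKO values lay within the CRE- range, with a log2 fold change of -0.05 (SE 0.19 and adjusted p = 0.957 by edgeR).

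**Figure D2:**
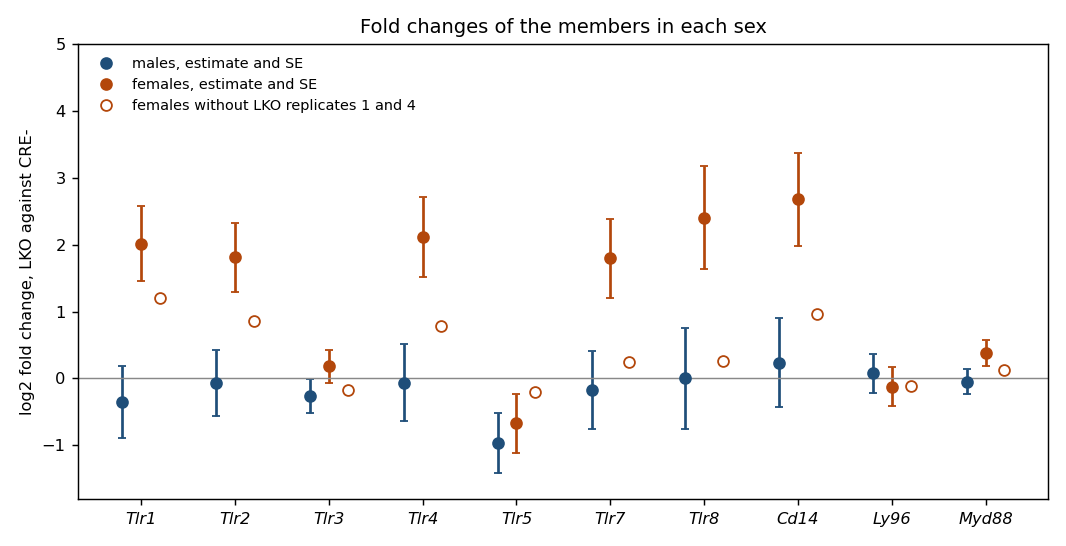
Log2 fold change of each gene, LKO against CRE-, with bars of 1 SE from edgeR's fit of all 16 libraries, for males and females, and without bars for females after leaving out female LKO replicates 1 and 4. For Tlr1, Tlr2, Tlr4, Tlr7, Tlr8 and Cd14 the female estimates lie between 1.79 and 2.68, and they lie between 0.24 and 1.21 without those 2 libraries.

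Whether the LKO effect differed between the sexes was tested as an interaction. 0 of the 10 genes passed by edgeR's test, as 0% of all genes tested did. By DESeq2 0 of the 10 passed, and 372 of 26379 genes with any count did (1.41%). Limma-voom also called 0 of the 10, and 29 of 16742 genes tested (0.173%). 6 of the 10 had a larger LKO effect in females at an unadjusted p under 0.05, as did 9.28% of all genes tested. The differences in log2 fold change, female minus male, were 2.36 (SE 0.78 and adjusted p = 0.213 by edgeR) for Tlr1 and 2.44 (SE 0.94 and adjusted p = 0.244) for Cd14. Tlr8 differed by 2.40, Tlr4 by 2.18, Tlr7 by 1.97 and Tlr2 by 1.88 on this scale, and the other 4 genes by -0.20 to 0.44. Without female LKO replicates 1 and 4, the difference was 1.57 for Tlr1, 0.73 for Cd14 and 0.26 for Tlr8. The median of the 10 differences was 1.92, against 0.04 over all genes tested. Without female LKO replicate 1 this median was 0.63 with 2 of the 10 at an unadjusted p under 0.05 (11.1% of all genes in either direction), and without replicates 1 and 4 it was 0.58 with 0 of the 10 (8.45% of all genes). Without replicate 4 alone the median was 1.79, with 5 of the 10 at that level (16% of all genes). The sex difference of these genes was therefore not shown after adjustment.

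Female and male controls were compared as well. 0 of the 10 genes passed between female and male CRE- mice by edgeR's test, against 0.920% of all genes tested, and DESeq2 and limma-voom called 0 of the 10. Of the genes with any count, DESeq2 called 499 of 26379 (1.89%) in this comparison, and of the genes tested limma-voom called 329 of 16742 (1.97%). Tlr5 alone was at an unadjusted p under 0.05, lower in females, as were 6.37% of all genes tested. The median log2 difference, female minus male, was -0.10 over the 10 genes and -0.01 over all genes. The largest positive value was 0.69 (SE 0.75) for Tlr8 and the next most negative after Tlr5 was -0.88 (SE 0.55) for Tlr1. These male and female controls share their libraries with the LKO comparisons.

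By group means, female LKO was the highest group for 8 of the 10 genes, with Tlr5 highest in male CRE- mice and Ly96 in female CRE- mice. For Tlr1, Tlr2 and Tlr7 the order below female LKO was male CRE-, male LKO and female CRE-. Tlr8 was ordered as female CRE-, male LKO and male CRE-, and Tlr4 as male CRE-, female CRE- and male LKO. Cd14 was ordered as male LKO, female CRE- and male CRE-, Myd88 as female CRE-, male CRE- and male LKO, and Tlr3 as male CRE-, female CRE- and male LKO. For Tlr5 the order from the highest was male CRE-, male LKO, female CRE- and female LKO, and for Ly96 it was female CRE-, female LKO, male LKO and male CRE-. In all 30 pairs of groups that are neighbours in these orders, the ranges of the 2 groups overlapped, so the orders by mean do not separate neighbours. By medians, female LKO was above female CRE- for 7 of the 10 genes.

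Levels of different genes were compared per length, as CPM per kilobase of the deposited gene length (RPKM). Averaged over all 16 libraries, this was 11.2 RPKM for Myd88, 8.69 RPKM for Cd14, 4.81 RPKM for Ly96 and 3.19 RPKM for Tlr2. These pooled means weigh the high values of female LKO replicates 1 and 4, and by medians the order was Myd88 at 10.7 RPKM, Ly96 at 4.69 RPKM, Cd14 at 4.11 RPKM and Tlr2 at 2.30 RPKM. The means of the other receptors were lower, with Tlr8 at 1.96 RPKM, Tlr1 at 1.60 RPKM, Tlr5 at 1.52 RPKM, Tlr3 at 1.42 RPKM, Tlr4 at 1.19 RPKM and Tlr7 at 0.963 RPKM. By medians over the 16 libraries the order of these was Tlr3 at 1.31 RPKM, Tlr5 at 1.25 RPKM, Tlr1 at 1.15 RPKM, Tlr8 at 0.763 RPKM, Tlr4 at 0.688 RPKM and Tlr7 at 0.603 RPKM. In male CRE-, male LKO and female CRE- mice, Myd88 was the highest of the 10 on this scale, at 10.1 ± 2.14 (SD, n = 4), 9.81 ± 1.18 (SD, n = 4) and 10.7 ± 1.58 (SD, n = 4) RPKM, and its range lay apart from that of the next gene, Ly96, at 4.33 ± 1.60 (SD, n = 4), 4.58 ± 0.841 (SD, n = 4) and 5.39 ± 1.69 (SD, n = 4) RPKM. In female LKO mice Cd14 was the highest by its mean, at 23.9 ± 23.2 (SD, n = 4) RPKM, ahead of Myd88 at 13.9 ± 3.11 (SD, n = 4) RPKM, with overlap between them.

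The other genes of the pathway were followed in 7 lists with 76 genes, and 72 of them could be tested. Among these, 2 rose and 1 fell in female LKO mice by edgeR's test, against 4.24% of all genes tested, and 25 were higher and 3 lower at an unadjusted p below 0.05, where 12.3% of all genes tested were higher and 9.14% lower. With female LKO replicate 1 left out, there were 9 higher and 3 lower (all genes 8.67% and 6.93%), 0 passed, and the median was 0.31. With replicate 4 left out, 22 were higher and 4 lower (all genes 12% and 8.49%), 1 passed, and the median was 0.50. With both left out, 3 were higher and 5 lower (all genes 6.10% and 5.41%), 0 passed, and the median was 0.18. The excess of higher genes was thus not seen without both libraries. With all libraries the median log2 fold change of the 72 genes was 0.54 in females and -0.12 in males. In males 0 of the 72 passed by edgeR, with 1 higher and 3 lower at an unadjusted p below 0.05 (all genes 4.79% and 4.74%). For the difference of the LKO effect between the sexes 0 of the 72 passed, with 19 higher and 2 lower at an unadjusted p below 0.05 (all genes 9.28% and 6.68%) and a median of 0.64. Between female and male CRE- mice 1 passed, Tlr12, which was lower in females.

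Of the 6 other Toll-like receptor genes, 1 rose in female LKO mice and 4 were higher at an unadjusted p under 0.05, and the median log2 fold changes were 1.42 for females and -0.41 for males. In the fit without female LKO replicate 1, 0 of the 6 passed, 1 was higher at an unadjusted p under 0.05, and the female median was 0.61. Tlr13, an endosomal receptor for bacterial ribosomal RNA, was at 4.37, 2.74, 2.97 and 1.07 CPM in female CRE- and 52.6, 5.78, 8.14 and 12.3 CPM in female LKO mice. All 4 LKO values lay above all CRE- values, with replicate 1 far above the rest. Its log2 fold change was 2.82 (SE 0.67 and adjusted p = 0.0317 by edgeR's quasi-likelihood test), 1.66 without replicate 1 (adjusted p = 0.119), 2.97 without replicate 4 (adjusted p = 0.0429) and 1.34 without both (adjusted p = 0.376). In males Tlr13 was at 6.39, 1.96, 3.64 and 6.83 CPM in CRE- and 9.39, 3.14, 3.9999 and 2.76 CPM in LKO mice, and its log2 fold change was 0.03. Tlr6, which pairs with Tlr2 for diacylated lipopeptides, was at 1.44, 1.01, 0.814 and 0.748 CPM in female CRE- and 6.37, 1.12, 2.23 and 1.97 CPM in female LKO mice, and its log2 fold change was 1.54 (adjusted p = 0.0817 by edgeR). Tlr9, the receptor for unmethylated CpG DNA, was at 1.84, 1.21, 0.814 and 1.02 CPM in female CRE- and 7.85, 1.35, 1.85 and 1.62 CPM in female LKO mice, again with replicate 1 apart, and its log2 fold change was 1.37 (adjusted p = 0.192 by edgeR). Cd180, a relative without a signalling domain that is found on B cells and macrophages, was at 4.21, 2.37, 3.38 and 6.28 CPM in female CRE- and 24.3, 5.61, 9.77 and 5.41 CPM in female LKO mice, with a log2 fold change of 1.47 (adjusted p = 0.112 by edgeR). Without replicate 1 these 3 log2 fold changes were 0.84, 0.41 and 0.79. Tlr11, a receptor for parasite profilin, had at most 1.70 CPM in any library and a female log2 fold change of 0.83 (adjusted p = 0.583 by edgeR), or 0.37 without replicate 1.

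Tlr12, the partner of Tlr11 in recognising profilin, had its highest mean in male CRE- mice, as Tlr5 did. It was at 21.04, 20.2, 28.9 and 31.7 CPM in male CRE- and 9.67, 12.8, 8.97 and 19.8 CPM in male LKO mice, and at 8.96, 10.98, 10.3 and 14.8 CPM in female CRE- and 10.8, 16.2, 15.6 and 13.1 CPM in female LKO mice. The male CRE- mice were the highest group, with every value above all female values and above all male LKO values. Between controls it was lower in females, with a log2 difference of -1.18 (SE 0.25 and adjusted p = 0.0375 by edgeR's quasi-likelihood test). Its log2 fold change in LKO mice was -0.99 in males (SE 0.25 and adjusted p = 0.116) and 0.31 in females (SE 0.25 and adjusted p = 0.532 by edgeR), neither of which passed.

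Of the 5 other adaptors with a TIR domain, 0 passed in females by edgeR, with 2 higher at an unadjusted p under 0.05, and the median log2 fold change was 0.36. At this level were 0 of the 5 without female LKO replicate 1, and the median was 0.34. Ticam2, which links Tlr4 to Ticam1, was at 1.51, 0.740, 0.718 and 1.39 CPM in female CRE- and 9.31, 0.997, 2.32 and 1.996 CPM in female LKO mice. The value of replicate 1 was far above the others, and the log2 fold change was 1.75 (adjusted p = 0.0770 by edgeR's quasi-likelihood test), or 0.72 without it. Pik3ap1, a link from these receptors to phosphoinositide 3-kinase, was at 96.1, 59.7, 73.3 and 77.9 CPM in female CRE- and 253, 90.0, 96.1 and 122 CPM in female LKO mice, with a log2 fold change of 0.87 (adjusted p = 0.0995 by edgeR), or 0.44 without replicate 1. Ticam1, the adaptor of Tlr3, had a female log2 fold change of 0.02 (adjusted p = 0.976 by edgeR), with all female LKO values between 14.3 and 22.3 CPM. Tirap, which bridges Myd88 to Tlr2 and Tlr4, had a female log2 fold change of -0.33 (adjusted p = 0.403 by edgeR). For Sarm1, at no more than 1.06 CPM in any library, it was 0.36 (adjusted p = 0.644 by edgeR). In males 0 of the 5 passed or were at an unadjusted p under 0.05, and the median was -0.07.

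Of the 11 negative regulators tested, 1 rose and 1 fell in female LKO mice, 6 were higher and 1 lower at an unadjusted p below 0.05, and the median log2 fold change was 0.69. Without female LKO replicate 4, 3 were higher at this level, without replicate 1 there were 5, and without both there was 1, with 1 lower in each. The median was 0.53, 0.46 and 0.23 without replicate 1, without replicate 4 and without both. Irak3, a kinase relative that restrains Myd88 signalling in macrophages, was at 4.70, 1.60, 1.53 and 1.76 CPM in female CRE- and 13.2, 4.69, 5.25 and 23.6 CPM in female LKO mice. Replicates 4 and 1 were the highest, and LKO replicate 2 lay just below the highest CRE- mouse. The log2 fold change of Irak3 was 2.28 (SE 0.61 and adjusted p = 0.0459 by edgeR's quasi-likelihood test), 2.23 without replicate 1 (adjusted p = 0.0993), 1.67 without replicate 4 (adjusted p = 0.117) and 1.06 without both (adjusted p = 0.539). Sigirr, an inhibitory receptor of the interleukin-1 receptor family, was at 32.2, 32.5, 29.2 and 41.3 CPM in female CRE- and 17.7, 27.7, 19.6 and 21.6 CPM in female LKO mice. All LKO values lay below all CRE- values, and replicate 1 was the lowest. The log2 fold change of Sigirr was -0.64 (SE 0.18 and adjusted p = 0.0497 by edgeR), -0.54 without replicate 1 (adjusted p = 0.144), -0.64 without replicate 4 (adjusted p = 0.0819) and -0.50 without both (adjusted p = 0.378). Nfkbia, the NFκB inhibitor and the most abundant gene of this list per length, had a female log2 fold change of 0.75 (adjusted p = 0.0563 by edgeR) and Tollip one of -0.18 (adjusted p = 0.605). In males 0 of the 11 passed, 1 was higher at an unadjusted p under 0.05, and the median was -0.23. Il1rl1, the listed gene not tested, had at most 38 counts in any library.

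Of the 18 kinases and ubiquitin enzymes downstream of the receptors, 0 passed in females by edgeR and 0 were at an unadjusted p under 0.05, and the median log2 fold change was 0.09 (-0.05, 0.12 and -0.01 without replicate 1, without replicate 4 and without both). The 3 most abundant per length were Chuk, Ube2v1 and Irak1. In males 0 of the 18 passed by edgeR, 1 was lower at an unadjusted p below 0.05, and the median was -0.09. Of the 9 transcription factors, 0 passed in females by edgeR, with 2 higher and 1 lower at an unadjusted p below 0.05 and a median of 0.59. The median was 0.29, 0.61 and 0.20 without replicate 1, without replicate 4 and without both, with 0, 1 and 0 higher and 1 lower in each. The 3 most abundant per length were Irf7 (0.64), Irf3 (-0.50) and Rela (0.21), with the female log2 fold change of each in brackets. None of the 9 passed in males by edgeR, 1 was lower at an unadjusted p below 0.05, and the median was -0.13. Of the 7 accessory and trafficking proteins, which fold, move or load the receptors, 0 passed in females by edgeR, with 3 higher and 1 lower at an unadjusted p below 0.05 and a median of 0.44. The median was 0.43, 0.15 and 0.00 without replicate 1, without replicate 4 and without both, with 1, 3 and 1 higher and 1, 1 and 2 lower at that level. The most abundant per length were Hsp90b1, a chaperone of the receptors (-0.32), Lbp, the lipopolysaccharide-binding protein that hepatocytes secrete (0.44, or 0.15 without replicate 4), and Cd36 (-0.41), with female log2 fold changes. Male LKO mice had 0 of the 7 passing by edgeR, 0 were at an unadjusted p under 0.05, and the median was -0.10.

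Of the 16 induced cytokines, chemokines and enzymes tested, 0 passed in females by edgeR and 8 were higher at an unadjusted p under 0.05, and the median log2 fold change was 1.35. This median was 0.72 without female LKO replicate 1, with 2 higher at an unadjusted p under 0.05, and 0.63 without replicates 1 and 4. The most abundant per length were the chemokines Cxcl1 (-0.13), Ccl5 (0.28) and Cxcl10 (0.53), with female log2 fold changes, and none of the 3 was at an unadjusted p under 0.05. That of Cxcl1 turned to 0.17 without replicate 1 and was -1.23 without replicate 4, and that of Ccl5 was 0.50 without replicate 4. Cxcl1 was highest in female CRE- replicate 1, at 95.3 CPM, and next in female LKO replicate 4, at 69.8 CPM. Il6, Ifnb1 and Ptgs2 had too few counts to be tested: Il6 had 47 counts in female LKO replicate 1 and 16 in replicate 3 with at most 4 elsewhere, Ifnb1 had 2 counts in male LKO replicate 1 and 0 in the other 15 libraries, and Ptgs2 had at most 26 in any library. None of the 16 passed in males by edgeR, 0 were at an unadjusted p under 0.05, and the median was 0.02.

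Markers of macrophages and neutrophils were higher in several female LKO libraries. Kupffer cell and pan-macrophage sums were highest in replicates 1 and 3, and neutrophil sums in replicates 4 and 1. Kupffer cell markers, of which Cd5l had the most counts, summed to 739.8, 554, 618 and 1231 CPM in female CRE- mice and 3249.8, 939.9, 2202 and 1315 CPM in female LKO mice. All 8 had positive log2 fold changes in females, with a median of 1.35, 6 were at an unadjusted p under 0.05, and 0 passed by edgeR. Without replicate 1, 4 were at this level and the median was 1.08. In males these markers summed to 811, 447, 218 and 1224 CPM in CRE- and 1151, 631, 713 and 665 CPM in LKO mice, with 0 of 8 passing and a median of 0.19. Pan-macrophage and monocyte markers, led in counts by Lyz2, summed to 394, 265, 298 and 501 CPM in female CRE- mice and 1474, 538, 1081 and 789.5 CPM in female LKO mice. All 8 were higher at an unadjusted p under 0.05, with a median of 1.92, and 3 passed by edgeR: Itgam at 2.57 (adjusted p = 0.0369), Adgre1 at 2.15 (adjusted p = 0.0451) and Fcgr1 at 1.99 (adjusted p = 0.0486). Their log2 fold changes without female LKO replicate 1 were 2.002, 1.21 and 1.25, with adjusted p of 0.117, 0.189 and 0.197 by edgeR, and the median of the 8 was then 1.23. In males the sums were 544, 222, 149.7 and 792 CPM in CRE- and 620.3, 309, 316 and 264 CPM in LKO mice, with 0 of 8 passing and a median of -0.23. The part of these cells in the levels of the receptors was not tested.

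**Figure D3:**
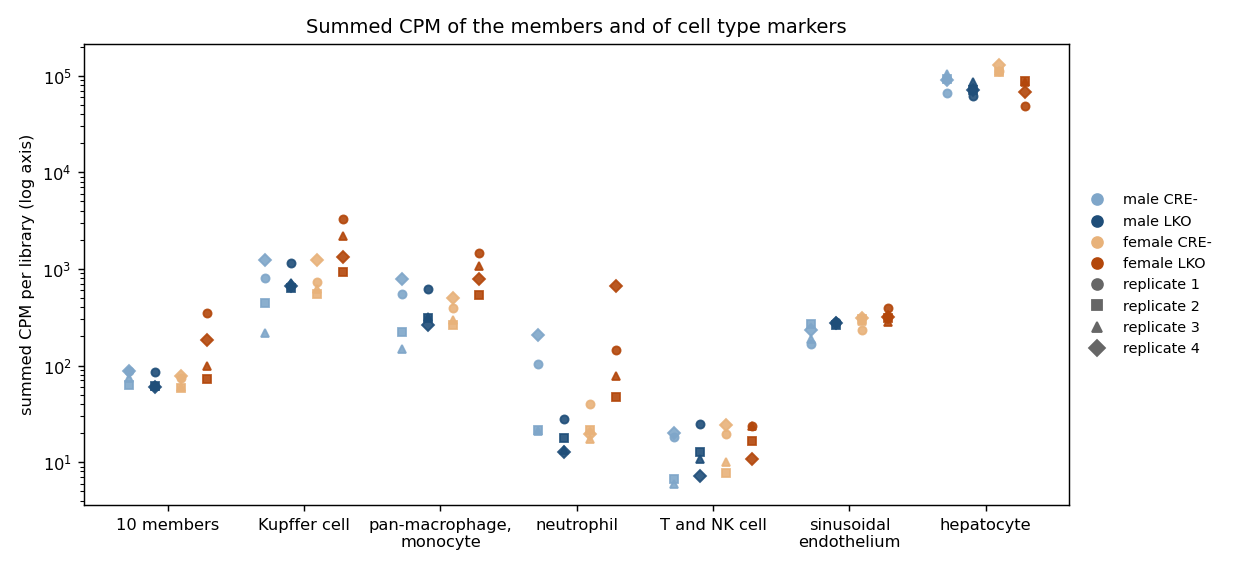
Summed CPM of the 10 genes and of markers of 6 cell types in every library, on a log axis, with colour for group and shape for replicate number. Female LKO replicate 1 (circle) is the highest library for the 10 genes and for Kupffer cell and pan-macrophage markers, and replicate 4 (diamond) for neutrophil markers.

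Lipid-associated macrophage markers summed to 194, 93.9, 95.6 and 179 CPM in female CRE- and 571, 315, 253 and 746 CPM in female LKO mice. Lpl had the most counts of them over all libraries together, with 466 and 548 CPM in female LKO replicates 1 and 4. Spp1, which is also in the list of cholangiocytes, was above Lpl in some libraries, as in male CRE- replicate 2 (36.9 against 23.3 CPM). Of these 6 markers 3 rose in females by edgeR: Trem2 at 2.701 (adjusted p = 0.0249), Cd9 at 1.41 (adjusted p = 0.0340) and Lpl at 2.57 (adjusted p = 0.0474), and the median of the list was 1.61. Without female LKO replicate 1, Cd9 passed at 1.67 (adjusted p = 0.0171 by edgeR), and Trem2 and Lpl, at 2.34 and 2.31, did not. Cd9 did not pass without replicate 4, at 0.92 (adjusted p = 0.0821). Neutrophil markers, led in counts by S100a9, summed to 39.7, 21.6, 17.5 and 19.6 CPM in female CRE- and 145, 47.2, 77.7 and 673 CPM in female LKO mice, highest in replicate 4. All 9 were higher at an unadjusted p under 0.05, the median log2 fold change was 3.50, and 4 rose by edgeR: Ltf at 4.88 (adjusted p = 0.0369), Ngp at 4.68 (adjusted p = 0.0483), Mmp8 at 3.50 (adjusted p = 0.0266) and Retnlg at 2.86 (adjusted p = 0.0331). Without replicate 4 the median of the neutrophil markers was 2.04, without replicate 1 it was 3.42, and 0 of the 9 passed by edgeR in either fit, with 9 at an unadjusted p under 0.05 in each. In males the neutrophil markers summed to 103, 21.5, 21.2 and 209 CPM in CRE- and 27.9, 17.6, 13.5 and 12.7 CPM in LKO mice. Male CRE- replicates 1 and 4 were the high ones, 0 of 9 passed by edgeR, and the median was -2.24. At an unadjusted p below 0.05, 8 of the 9 were lower, where 4.74% of all genes tested were. Camp was at 0 in male LKO replicate 4, and no other neutrophil marker was at 0 in any library.

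Markers of most other cells differed less. T and NK cell markers, led in counts by Nkg7, summed to 19.5, 7.71, 10.03 and 24.1 CPM in female CRE- and 23.9, 16.7, 23.4 and 10.7 CPM in female LKO mice, with 0 of 8 passing by edgeR, 0 at an unadjusted p under 0.05 and a median log2 fold change of 0.26, or 0.47 without replicate 4. B cell markers summed to 39.2, 14.9, 20.7 and 20.3 CPM and 95.0, 25.9, 48.2 and 9.52 CPM in these groups, with 0 of 5 passing, 2 higher at an unadjusted p under 0.05 and a median of 0.77. These 2 values were 0 and 0.25 without replicate 1, and 3 and 1.07 without replicate 4. Pax5 had the most counts of the B cell markers over all libraries together. It was at 45.3 CPM in female LKO replicate 1, 19.1 CPM in male CRE- replicate 3 and at most 6.11 CPM in any other library. Dendritic cell markers, led by Zbtb46, summed to 12.4, 12.5, 12.8 and 14.03 CPM and 20.97, 13.2, 14.7 and 8.59 CPM, with 0 of 7 passing, 0 at an unadjusted p under 0.05 and a median of 0.34 (0.14, 0.56 and 0.55 without replicate 1, without replicate 4 and without both). Siglech was at 0 in female LKO replicate 4, and Ccr9 was at 0 in that library and in male CRE- replicate 3. Markers of sinusoidal endothelium, led by Stab2, summed to 232, 304, 289 and 307 CPM and 390.1, 307, 285 and 316 CPM, with a median of 0.39 (0.35, 0.20 and 0.06 without replicate 1, without replicate 4 and without both), and Cdh5 alone of 7 rose, at 0.79 (adjusted p = 0.0249 by edgeR), or 0.71 without replicate 1 (adjusted p = 0.0588). Markers of stellate cells and fibroblasts, led by Dcn, had 0 of 7 passing by edgeR with 1 lower at an unadjusted p below 0.05, and a median of -0.15. The sign of this median turned with the library left out, at -0.25, 0.12 and -0.08 without replicate 1, without replicate 4 and without both. Those of cholangiocytes, led by Spp1, had 0 of 6 passing and 0 at an unadjusted p under 0.05, and a median of 0.24, or 0.12 without replicate 1, with Cldn4 at 0 in male CRE- replicate 3. Krt19 was higher in female than in male CRE- mice, by 1.66 (adjusted p = 0.0300 by edgeR). Of 5 proliferation genes, led in counts by Mki67, 4 rose by edgeR: Ccnb1 at 2.60 (adjusted p = 0.0256), Top2a at 2.45 (adjusted p = 0.0397), Cdk1 at 1.72 (adjusted p = 0.0266) and Birc5 at 1.63 (adjusted p = 0.0232). 0 of these 5 passed without female LKO replicate 1, and their median was then 1.65 in place of 1.72. Hepatocyte markers, led by Alb, summed to 110832, 107901, 113113 and 129137 CPM in female CRE- and 48794, 88857, 85267 and 67040.1 CPM in female LKO mice, lowest in replicate 1, with 0 of 7 passing by edgeR, 2 lower at an unadjusted p below 0.05 and a median of -0.69, or 1 lower and -0.47 without replicate 1. Without replicate 4, Adgre1, Trem2, Cdh5, Birc5, Ccnb1 and Cdk1 were the markers that still passed in females, and without both replicates 1 and 4 none did. Medians without both were 1.22 for Kupffer cells, 1.19 for pan-macrophages, 1.14 for lipid-associated macrophages, 1.38 for neutrophils and 1.63 for proliferation genes. Higher at an unadjusted p under 0.05 by edgeR were 4, 4, 4, 3 and 4 markers of these lists, in that order. Of all genes tested, 6.10% were. Further medians without both were 0.69 for B cells, 0.49 for T and NK cells, 0.17 for cholangiocytes and -0.23 for hepatocytes. In males 0 markers of these lists passed by edgeR. Male medians were 0.34 for lipid-associated macrophages, -0.07 for T and NK cells, 0.02 for B cells, 0.00 for dendritic cells and 0.41 for sinusoidal endothelium. They were -0.57 for stellate cells and fibroblasts, 0.50 for cholangiocytes, -0.10 for proliferation genes and 0.00 for hepatocytes. The part of any of these cells in the levels of the 10 genes was not tested.

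For 9 of the 10 genes, the genes with the most similar profile over the 16 libraries were found by the root mean square difference of centred log2 CPM. For Tlr1 they were Ptpro (0.234), Treml2 (0.303) and Fgr (0.306), with the difference in log2 units in brackets. For Tlr2 they were Fermt3 (0.222), Slc11a1 (0.232) and Ifi211 (0.233), and for Tlr4 Ano6 (0.273), Ppm1h (0.288) and Fam111a (0.291). Those of Tlr5 were Ppara (0.386), P2ry1 (0.408) and Syde2 (0.425). Tlr3 was closest to Adar (0.146), Hnrnpr (0.169) and Nfatc1 (0.175), Tlr7 to Emb (0.368), Cybb (0.394) and Sirpa (0.398), and Tlr8 to G530011O06Rik (0.411), Gm52877 (0.470) and Vcam1 (0.486). Cd14 was closest to Pglyrp1 (0.567), Ms4a6d (0.603) and Gm5150 (0.606), and Ly96 to Erp29 (0.221), Commd7 (0.222) and Hps6 (0.230). The standard deviation of the gene's own profile was 1.06 for Tlr1, 1.46 for Cd14 and 0.36 for Ly96, in the same units as these distances. Closest to the mean profile of the 10 genes were Ptpn6 (0.133), Apobec1 (0.169), Grk2 (0.173), Rcsd1 (0.182), Cmklr1 (0.195), Cyrib (0.196), Rab31 (0.197), Nod1 (0.198), Lyn (0.199) and Cerk (0.200). These distances describe all 16 libraries at once, female LKO replicates 1 and 4 included.

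The 10 genes lie on 8 chromosomes of the GRCm39 build. The receptor genes lie at chr5:65082023-65090945 (Tlr1), chr3:83743579-83749045 (Tlr2), chr8:45848702-45864112 (Tlr3), chr4:66745788-66765338 (Tlr4), chr1:182782317-182804010 (Tlr5), chrX:166086376-166113570 (Tlr7) and chrX:166024119-166047325 (Tlr8). Cd14 lies at chr18:36858117-36859868, Ly96 at chr1:16758680-16779829 and Myd88 at chr9:119165000-119169084. Tlr4, Tlr5 and Ly96 are on the plus strand and the other 7 on the minus strand. None of them overlaps another gene of the table. Tlr7 and Tlr8 are neighbours on the X chromosome, and Tlr1 lies beside Tlr6 on chromosome 5. Of the 150-base windows in the annotated transcripts of Tlr1, 139 of 3368 (4.13%) were also present in transcripts of Tlr6, and for each of the other 9 genes 0 windows were shared with another gene. A read that matches a shared window cannot be assigned to Tlr1 or Tlr6 by its own sequence. Whether its mate would assign it was not tested.

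The sequence before the starts of the genes in RefSeq was searched for 4 motifs that transcription factors of immune genes bind. RefSeq promoter windows, from a table on GRCm38.p6, were held for 6 of the 10 genes and for none of Tlr4, Tlr7, Cd14 and Ly96. The 250 bases before each start, 7 windows in all, were each found at 1 place in GRCm39 by exact match. The motifs were kB (GGANTTNCC), AP-1 (TGANTCA), ISRE core (GAAANNGAA) and ETS (GAGGAAG), searched on both strands. Of all 32851 windows, 3.15% held kB, 6.75% AP-1, 7.13% ISRE core and 10.6% ETS. Tlr2 held kB on both strands in overlapping matches, at -172 to -164 and -171 to -163 from the start, and Tlr3 held it at -210 to -202. Tlr8 held an ISRE core on the minus strand of the window at -67 to -59, and Myd88 held it on the plus strand at -40 to -32. The Tlr3 and Myd88 windows lay wholly inside the gene as given in the deposited table or in GENCODE. Their matches are therefore not upstream of the annotated gene. Tlr1 held ETS at -23 to -17 in 1 of its 2 windows. AP-1 was in none of the 7 windows, and no motif was in that of Tlr5. A match is a description and not a site of binding.

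The sequences upstream of Tlr2, Tlr8 and Tlr1 are shown because these genes were higher in female LKO mice at an unadjusted p under 0.05 and are held in the RefSeq table. Each is written 5′ to 3′ on the minus strand, from GRCm39, and is limited to bases outside the gene as given both in the deposited table and in GENCODE, which places the edge of Tlr2 farther upstream than the table does. That of Tlr2 is chr3:83749075-83749165, with the overlapping kB matches in capitals. That of Tlr8 is chrX:166047326-166047575, with the ISRE core in capitals as read on the gene's strand. That of Tlr1 is chr5:65090946-65091151, which holds none of the 4 motifs, since its ETS match lies inside the annotated gene.
Tlr2: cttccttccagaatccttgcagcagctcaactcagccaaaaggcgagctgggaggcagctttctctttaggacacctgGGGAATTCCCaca
Tlr8: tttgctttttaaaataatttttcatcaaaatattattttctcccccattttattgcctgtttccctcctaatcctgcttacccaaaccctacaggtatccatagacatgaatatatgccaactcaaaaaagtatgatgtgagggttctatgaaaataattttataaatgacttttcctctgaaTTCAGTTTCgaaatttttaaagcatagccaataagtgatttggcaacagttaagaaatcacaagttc
Tlr1: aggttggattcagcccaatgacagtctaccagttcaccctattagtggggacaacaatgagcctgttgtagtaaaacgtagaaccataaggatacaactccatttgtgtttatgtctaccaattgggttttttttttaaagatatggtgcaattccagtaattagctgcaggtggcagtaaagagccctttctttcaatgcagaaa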

How the data were processed

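The counts were made by the authors before deposit: reads were aligned to the GRCm39 genome with STAR 2.7.1a, and paired reads were counted on genes with featureCounts of Subread 2.0.6 in its strand-reversed setting. By the header of the deposited file each mate was counted as a read, and 67.7% of the non-zero counts were even. The deposited counts of 16 libraries, 4 mice in each of 4 groups by their labels, were used from there on. The authors' tables of fold changes were not used.

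Genes were kept by edgeR's filter with a minimum count of 10, libraries were scaled by TMM, and 1 model of the 4 groups was fitted to all 16 libraries. Differences were tested with edgeR's quasi-likelihood F-test with Benjamini-Hochberg adjustment over all genes tested and a threshold of 0.05 on the adjusted p. Log2 CPM used a prior count of 2. The versions were R 4.3.3, edgeR 4.0.16, limma 3.58.1, DESeq2 1.42.0 and Python 3.11.15. The code was run on simulated data with known differences before use.

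The alternatives were DESeq2, RLE and upper-quartile factors, other filters on low counts, groups fitted alone, replicate number as a block, limma-voom with quality weights, a threshold of 0.01, a prior count of 0.5 and each library left out in turn. Leaving out female LKO replicates 1 and 4 together was added after the data had been seen.

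The 10 genes and the lists of pathway and marker genes were chosen with earlier results of these data known. Named from the pathway lists were all genes that passed the threshold, all other Toll-like receptors and TIR adaptors, and up to 3 further genes per list, the most abundant. Named from the marker lists were the gene with the most counts, those that passed and those at 0 counts. The 3 genes closest in profile to each of 9 of the genes and the 10 closest to the mean profile were named as well.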

Additional observations from a re-analysis of the deposited data

Results flagged for a closer look

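Tlr3 in female LKO replicate 1 stood apart from its group. Its log2 CPM was the highest of the 4, and the gap to the next value was 0.901 of the range of the group, over the critical value of Dixon's test for 4 samples. Over the 10 genes 40 groups were looked at, and by chance about 1 in 20 groups would pass this limit.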

How the results depend on the processing

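In males, 76 genes were called, against 336 with DESeq2, 148 with limma-voom, 22 at an adjusted p under 0.01 and 171 with both female LKO replicates 1 and 4 left out. In females, 710 were called, against 1795 with DESeq2, 1976 with limma-voom, 119 with the 2 groups fitted alone, 51 at an adjusted p under 0.01 and 78 with both libraries left out. For the sex difference of the LKO effect, 0 were called, against 372 with DESeq2, 29 with limma-voom, 12 with no filter on low counts and 3 with both libraries left out. Between female and male CRE- mice, 154 were called, against 499 with DESeq2, 329 with limma-voom, 249 with the 2 groups fitted alone, 78 with at least 10 counts in every library, 54 at an adjusted p under 0.01 and 282 with both libraries left out. Leaving out both libraries was chosen after the data had been seen.

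With each library left out in turn, the number of genes called ran from 26 (without male CRE- replicate 3) to 111 (without female LKO replicate 1) in males and from 87 (without female CRE- replicate 2) to 1310 (without female LKO replicate 2) in females. It ran from 0 (without male CRE- replicate 1) to 14 (without male LKO replicate 1) for the sex difference and from 68 (without male CRE- replicate 1) to 213 (without female LKO replicate 1) between the controls.

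Of the 10 genes, 1 was called in females. The count was 6 with DESeq2 (6.80% of genes with any count), 4 with no filter on low counts (2.16%) and 3 with limma-voom (11.8% of genes tested). It was 0 with the 2 groups fitted alone (0.756%), with both libraries left out (0.443%) and at an adjusted p under 0.01. With each library left out in turn the count ran from 0 to 5. The 5 came without female LKO replicate 2, where 1310 of 17105 genes were called. The count was 0 without male CRE- replicate 1, male LKO replicates 2, 3 or 4, any female CRE- replicate or female LKO replicate 1. In males, for the sex difference and between the controls 0 of the 10 were called in every setting. The log2 fold change of Cd14 in females was 2.69 and not called with the 2 groups fitted alone, and 0.96 with both libraries left out.

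With the replicate number as a block, 3 of the 10 genes and 1244 genes in all were called in females. In this fit the log2 fold change of Tlr2 in males was 0.00482, that of Tlr8 in males -0.17, and that of Tlr4 between female and male CRE- mice 0.0718, each with the other sign than without the block. With the block Cd14 (adjusted p = 0.015), Tlr1 (0.00485) and Tlr2 (0.0178) passed in females, so the block changed the calls of Tlr1 and Tlr2. The labels do not say that a number marks the same animal, litter or batch, so the number was not taken as a pairing. Of 24 pairs of libraries with the same number, 11 had r over 0.1 after group means were removed, against 12 of 72 pairs with different numbers, and r in the same-numbered pairs ran from -0.25 to 0.33. The best partner had the same number in 24 of 48 choices, where even choices among 4 would give 12. Same-numbered libraries were thus alike more often than others, but not in every pair. The cause was not tested.

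Some log2 fold changes near 0 changed sign. That of Tlr8 in males was -0.0112 with DESeq2, -0.0133 with RLE factors, -0.0117 with no filter, -0.0034 with at least 10 counts in every library, -0.0132 with the 2 groups fitted alone, -0.68 with limma-voom and -0.00344 with both libraries left out. With limma-voom, Cd14 in males was -0.26, Tlr3 in females -0.11, Ly96 in females 0.0916 and the sex difference of Tlr5 -0.12. Between the controls limma-voom gave -0.11 for Cd14 and -0.0609 for Myd88. With both libraries left out, Tlr3 in females was -0.17.

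With each library left out in turn, log2 fold changes in males ran from -0.45 (without male LKO replicate 1) to 0.20 (without male CRE- replicate 4) for Tlr2, from -0.26 (without male LKO replicate 1) to 0.0503 (without male LKO replicate 4) for Tlr4, from -0.66 (without male LKO replicate 1) to 0.0901 (without male CRE- replicate 4) for Tlr7, from -0.66 (without male LKO replicate 1) to 0.25 (without male LKO replicate 4) for Tlr8, from -0.33 (without male LKO replicate 1) to 0.73 (without male CRE- replicate 4) for Cd14, from -0.0817 (without male CRE- replicate 2) to 0.34 (without male CRE- replicate 4) for Ly96 and from -0.18 (without male CRE- replicate 3) to 0.0816 (without male CRE- replicate 4) for Myd88. In females they ran from -0.15 (without female LKO replicate 1) to 0.29 (without female LKO replicate 3) for Tlr3 and from -0.28 (without female CRE- replicate 3) to 0.0886 (without female CRE- replicate 4) for Ly96. The sex difference of Ly96 ran from -0.47 (without male CRE- replicate 4) to 0.0381 (without female CRE- replicate 4). Between the controls the values ran from -0.22 (without female CRE- replicate 4) to 0.0691 (without male CRE- replicate 3) for Tlr4, from -0.16 (without male CRE- replicate 3) to 0.67 (without male CRE- replicate 4) for Cd14 and from -0.0522 (without male CRE- replicate 3) to 0.21 (without male CRE- replicate 4) for Myd88.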
